A study of Mus musculus with 10 samples.

Results

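Stromal macrophages of the mouse mammary gland were set against each of 4 other sorted populations of antigen-presenting cells, and the genes that lay above, or below, all 4 were described. They were represented by 2 of the 10 libraries of the study, chosen by the cell type in their labels. All cells were sorted from the mammary tissue of adult female C57BL/6 mice that were virgin. The other populations, with 2 libraries each, were ductal macrophages, CD11b-CD103+ dendritic cells (hereafter CD103+), CD11b-CD103- dendritic cells (CD103-) and CD11b+ dendritic cells. Replicates are labelled as biological, and pooling of mice is not mentioned. The 5 populations shared the tissue, the strain and the absence of any treatment or engineered allele in the labels. No sorting gates beyond CD11b and CD103 are named in the labels.

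Macrophages of the mammary stroma lie in the connective and fatty tissue around the milk ducts, while ductal macrophages lie within the ductal epithelium. In many tissues, macrophages near vessels and in connective tissue carry the hyaluronan receptor LYVE1, the folate receptor FOLR2 and endocytic receptors such as CD163 and CD206, with low MHC class II. Dendritic cells, by contrast, are specialised in carrying antigen to lymph nodes by means of the chemokine receptor CCR7 and in presenting it to T cells on MHC class II.

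Total counts were 23093742 and 17998986 in the stromal libraries and 5636092 to 22519191 in the other 8. Mitochondrially encoded genes took 24.8% and 23.1% of the counts of the stromal libraries, against 0.631% to 6.29% of those of the others. The stromal replicates had the lowest Pearson correlation of log2 CPM of the 5 replicate pairs (0.928 over genes, against 0.954 to 0.970), as a description of these libraries. Median log2 differences between stromal macrophages and the other populations also followed base composition. In the fifth of genes with the lowest GC content, medians lay between 0.203 and 0.359, and in the fifth with the highest between -0.292 and -0.101. The counts over all genes are therefore also given without the mitochondrial genes or with a correction for GC content. Levels are CPM (counts scaled to a common library size) on TMM-adjusted totals, so that 3 counts correspond to 0.119 to 0.683 CPM in a library, and they reflect RNA abundance in the sorted material.

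Against 11 macrophage markers, the stromal libraries stood above CD103+ and CD103- dendritic cells and below CD11b+ dendritic cells in summed level. The list summed to 19400 and 12650 CPM in stromal macrophages, against 42160 and 36640 CPM in ductal macrophages, 26710 and 28390 CPM in CD11b+ dendritic cells and 1958 to 3949 CPM in the other dendritic cells. Lyz2 alone gave 22100 and 24010 CPM of the CD11b+ sums and 9405 and 5286 CPM of the stromal sums. Taken singly against CD11b+ dendritic cells, 6 of the 11 were higher in stromal macrophages and 2 lower (adjusted p under 0.05). The shares over all tested genes were 11.6% and 14.5%. Fcgr1, the high-affinity IgG receptor, had 131 and 123 CPM in stromal macrophages, against 103.4 and 151.7 CPM in ductal macrophages and at most 2.69 CPM in any dendritic cell library. C1qa, a subunit of the first complement component, had 1874 and 1329 CPM in stromal macrophages, 4253 and 3952 CPM in ductal macrophages and at most 34.1 CPM in dendritic cells. Some other markers did not stand higher in stromal macrophages than in CD11b+ dendritic cells. Lyz2, lysozyme, had 9405 and 5286 CPM in stromal macrophages and 22100 and 24010 CPM in CD11b+ dendritic cells, and Cd14, a receptor for lipopolysaccharide, had 894 and 763 CPM against 2998 and 2738 CPM. Adgre1, which encodes F4/80, overlapped at 386 and 231 CPM in stromal macrophages and 331 and 253 CPM in CD11b+ dendritic cells, and Csf1r overlapped at 614 and 359 CPM against 551 and 566 CPM. None of the 11 macrophage markers was called higher or lower than in all 4 other populations with edgeR or DESeq2. With edgeR, 1.99% of all tested genes were called higher and 2.72% lower. At an unadjusted p under 0.05 the count was 0 as well, beside 2144 of the 15681 tested genes. Of the 12 conventional dendritic cell markers, 4 were at or near 0. Flt3 had 0.442 and 0 CPM, Xcr1 had 0.497 and 0 CPM, and neither Clec9a nor Itgae, which encodes CD103, had a count in either stromal library. Others of the 12 had clear stromal levels, among them Cd209a at 241 and 132 CPM, Irf8 at 133 and 91.2 CPM and Sirpa at 126 and 109 CPM. The 12 summed to 601 and 503 CPM in stromal macrophages, against 890 to 3092 CPM in the other libraries. Itgam, which encodes the sorting marker CD11b, had 116 and 102 CPM in stromal macrophages, between 556 and 701 CPM in CD11b+ dendritic cells and at most 11.4 CPM in the other 6 libraries. In bulk samples such as these, fewer cells of a type and less RNA per cell cannot be told apart.

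Of 15681 genes tested, 312 (1.99%) were higher in stromal macrophages than in every other population and 427 (2.72%) were lower. A gene was called where all 4 log2 fold changes had the same sign and the largest of the 4 edgeR quasi-likelihood p-values passed an adjusted p under 0.05 over all genes. Against single populations, the genes higher in stromal macrophages numbered 2246 (14.3%) for ductal macrophages, 2514 (16.0%) for CD103+ dendritic cells, 2658 (17.0%) for CD103- dendritic cells and 1825 (11.6%) for CD11b+ dendritic cells. Those lower numbered 2555 (16.3%), 2749 (17.5%), 2884 (18.4%) and 2272 (14.5%) in the same order of populations. These 4 comparisons share the stromal libraries. The balance of higher and lower genes depended on the scaling. Upper-quartile factors gave 2650 higher and 2320 lower genes against ductal macrophages, and the GC correction gave 2100 and 2936. Against CD103+ dendritic cells the GC correction gave 2906 higher and 2556 lower genes. Against CD103- and CD11b+ dendritic cells lower genes outnumbered higher ones under both settings. Both stromal libraries lay above all 8 others in 2127 genes (13.6%) and below them in 1887 (12.0%), without a test. All 312 higher and 427 lower genes were among those whose libraries did not overlap.

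Each gene was ranked by its smallest difference, the log2 fold change of stromal macrophages against whichever population lay nearest. Its median was 2.175 for the genes called higher and -1.912 for those called lower, beside 0.0036 for all tested genes. The smallest difference reached 3 on the log2 scale for 98 higher genes and -3 for 110 lower ones. It reached 5 for 24 higher genes and -5 for 50 lower ones. CD11b+ dendritic cells were the nearest population for 114 of the higher genes (36.5%) and 194 of the lower (45.4%). CD103+ dendritic cells were nearest for 92 higher and 45 lower genes, ductal macrophages for 70 and 130, and CD103- dendritic cells for 36 and 58. Of the 427 lower genes, 30 had no count in either stromal library. Only Slc7a13, a membrane transport gene chosen here after its values were seen, was called higher with no count in any of the 8 other libraries. DESeq2, in place of edgeR, gave Slc7a13 an adjusted p of 0.503. It had 21.3 and 4.04 CPM in the stromal libraries, and its adjusted p of 0.0324 rose to between 0.0521 and 0.143 when any of 8 of the libraries was left out (both ductal, both CD103+, both CD11b+, CD103- replicate 2 and stromal replicate 1).

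The number of calls depended on single libraries. Without CD11b+ dendritic cell replicate 1 there were 166 higher and 237 lower genes, and without its replicate 2 there were 169 and 284. The count of higher genes was 199 or 187 without ductal replicate 1 or 2, 174 without stromal replicate 1 and 198 without CD103+ replicate 2. Leaving out the mitochondrially encoded genes gave 304 higher and 418 lower genes, of which 293 and 407 were shared with the full fit. The correction for GC content gave 324 and 478, of which 281 and 395 were shared.

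**Figure D1:**
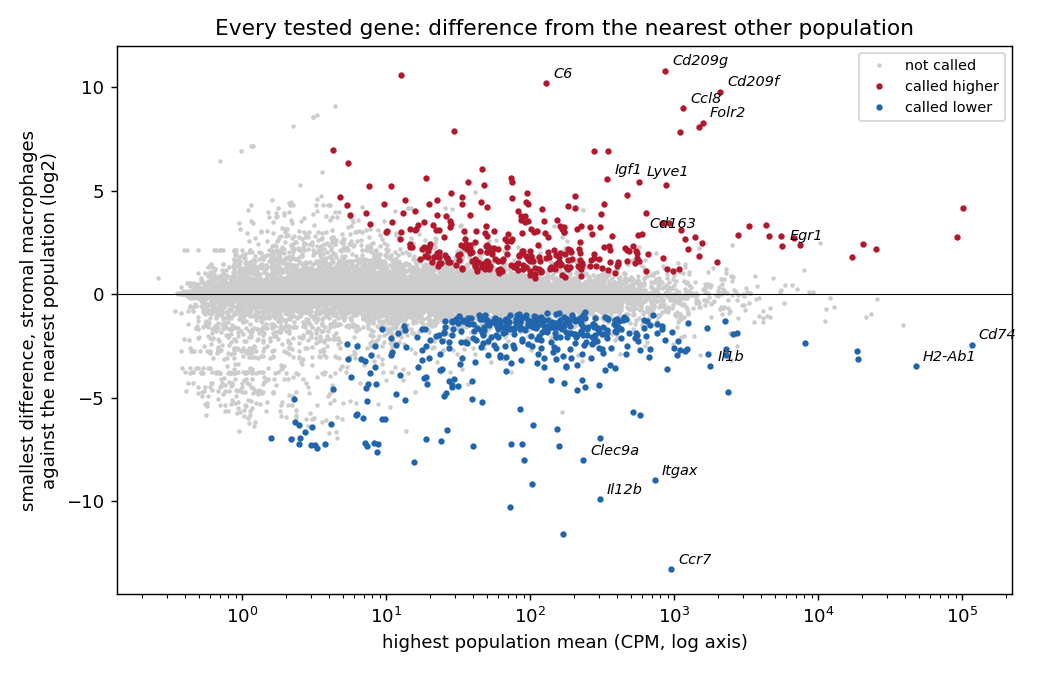
Smallest difference of stromal macrophages from the nearest other population (log2, vertical) against the highest mean of the 5 populations (CPM, log axis) for the 15681 tested genes. Red points are the 312 genes called higher, blue points the 427 called lower, and grey points the rest. The CD209-type lectin genes Cd209g and Cd209f lie near the top, and Ccr7 and Il12b, with no stromal count, near the bottom.

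Genes of the CD209 family, C-type lectins related to human DC-SIGN that bind sugars of microbes and host glycoproteins, held the first and the third places among the higher genes of at least 30 CPM. Cd209g had 981 and 733 CPM in stromal macrophages, against 0 to 0.757 CPM in the other 8 libraries, a smallest difference of 10.79 ± 0.71 (log2, SE; adjusted p = 3.40e-05). Cd209f had 2284 and 1873 CPM in stromal macrophages, against 0.207 to 2.34 CPM elsewhere (9.79 ± 0.39, adjusted p = 8.40e-07). Cd209b, known as SIGN-R1 on macrophages of the splenic marginal zone, had 401 and 290 CPM against 0.0690 to 3.51 CPM (6.92 ± 0.40, adjusted p = 1.05e-05). Cd209d had 307 and 231 CPM in stromal macrophages, 39.4 and 33.2 CPM in CD11b+ dendritic cells and at most 3.12 CPM in the other 6 libraries (2.88 ± 0.31, adjusted p = 0.000484). In all 4 genes both stromal libraries stood above every other library, as they did in every gene called higher. Cd209a, which encodes the CD209 protein marking dendritic cells, went another way, with 241 and 132 CPM in stromal macrophages and 1198 and 763 CPM in CD11b+ dendritic cells. The genes lie together on chromosome 8. In the GRCm38 annotation Cd209g spans chr8:4134246-4137707, Cd209f chr8:4102784-4105838 and Cd209b chr8:3917655-3926841. Cd209f and Cd209g are close copies, with a shared run of 154 bases in the 250 bases before the annotated starts. The labels do not say how reads fitting several copies were counted, so the division of counts between these 2 genes is uncertain. The same holds for C4b and C4a, for Ifit3 and Ifit3b and for Csf2rb and Csf2rb2, named further on, which are close copies in the mouse.

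Among 22 endocytic lectins tested, 8 were higher than in every other population and none was lower, with a median smallest difference of 0.70. The fifth Cd209 gene among them, Cd209e, had 16.8 and 14.8 CPM in the stromal libraries and at most 1.80 CPM elsewhere, and its adjusted p of 0.0449 rose to between 0.0532 and 0.282 with any of 8 single libraries left out (both ductal, both CD11b+, both CD103+, CD103- replicate 2 and stromal replicate 1). Clec10a, a galactose-type lectin of macrophages and some dendritic cells, had 583 and 381 CPM in stromal macrophages, against 120 and 111 CPM in CD11b+ dendritic cells and at most 13.8 CPM elsewhere (2.06 ± 0.26, adjusted p = 0.000905). Colec12, a scavenger-type collectin, had 118 and 75.3 CPM against at most 9.65 CPM (3.55 ± 0.43, adjusted p = 0.000812). Mrc1, which encodes the mannose receptor CD206, missed the threshold. It had 1190 and 777 CPM in stromal macrophages and 681 and 495 CPM in CD11b+ dendritic cells (0.74 ± 0.31, adjusted p = 0.304).

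**Figure D2:**
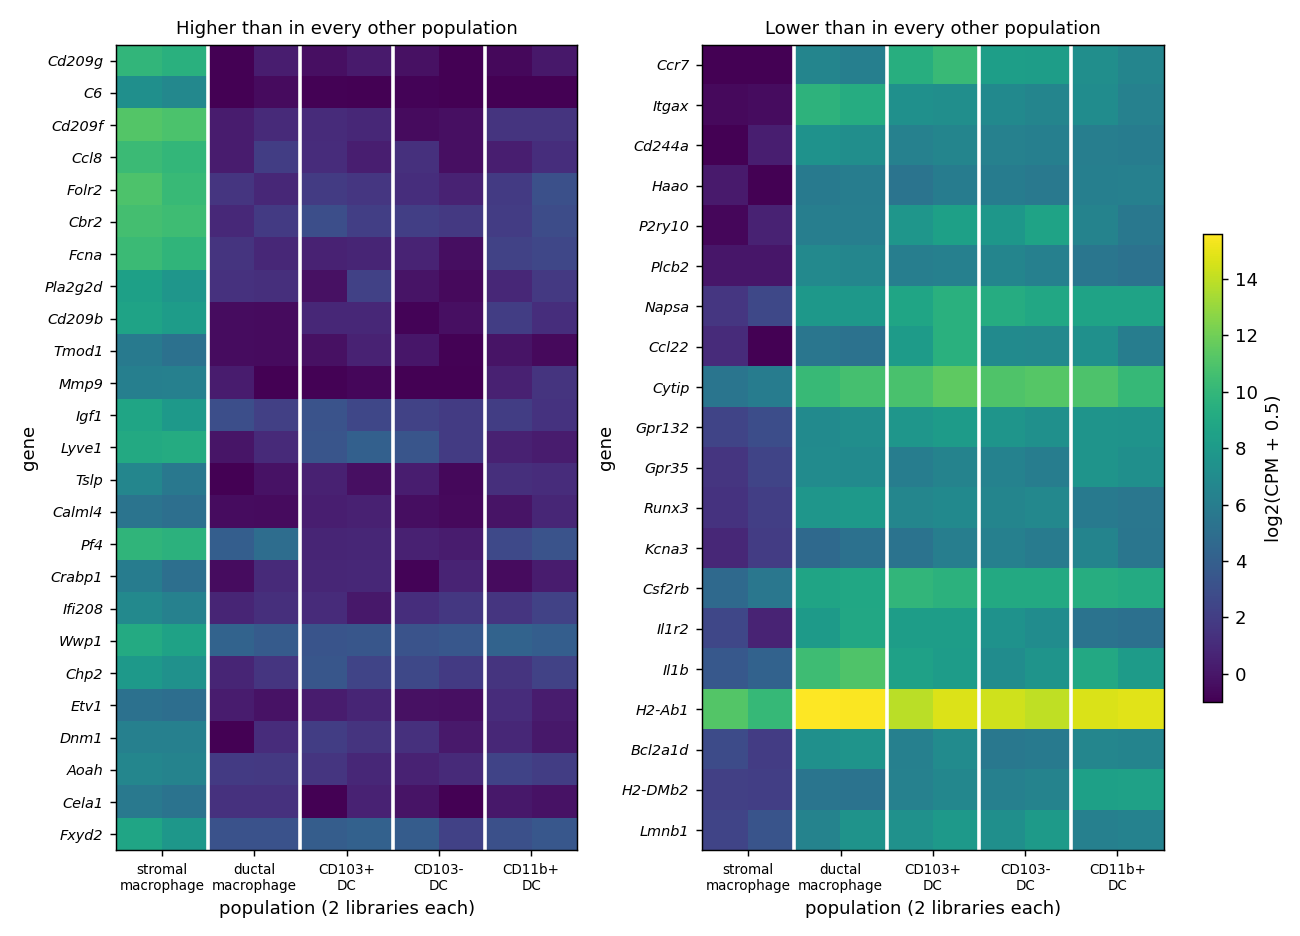
Levels of the 25 highest ranked genes called higher (left) and the 20 highest ranked called lower (right) in each of the 10 libraries, as log2(CPM + 0.5), with stromal macrophages in the first pair of columns of each panel and dendritic cells written DC. In every row both stromal libraries stand apart from the other 8, as they do for every called gene.

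The 20 genes listed for LYVE1+ macrophages near vessels, all tested, held 14 higher genes and no lower gene, with a median smallest difference of 2.90. Folr2, the folate receptor beta, had 2005 and 1150 CPM in stromal macrophages, against 0.995 to 7.90 CPM in the other libraries (8.28 ± 0.57, adjusted p = 2.53e-05). Cbr2, a carbonyl reductase, had 1570 and 1398 CPM against 1.37 to 7.30 CPM (8.07 ± 0.50, adjusted p = 1.50e-05). Lyve1, the hyaluronan receptor, had 537 and 604 CPM against 0.456 to 16.2 CPM (5.44 ± 0.52, adjusted p = 0.000218). Stromal levels of these 3 genes were over an order of magnitude above the highest other library. Pf4, the chemokine CXCL4, had 937 and 808 CPM in stromal macrophages, 15.3 and 30.1 CPM in ductal macrophages and at most 8.80 CPM in dendritic cells. Cd163, the scavenger receptor for haemoglobin and haptoglobin, had 656 and 532 CPM in stromal macrophages, 91.7 and 65.3 CPM in CD11b+ dendritic cells and at most 7.53 CPM in the other 6 libraries (2.92 ± 0.28, adjusted p = 0.000221). Dab2, an endocytic adaptor, had 1511 and 1600 CPM in stromal macrophages, against 225 and 341 CPM in ductal macrophages, which came nearest (2.46 ± 0.36, adjusted p = 0.00227).

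For some genes of this list the call rested on single libraries. CD11b+ dendritic cells were nearest for F13a1 and Ccl24. F13a1, the A subunit of coagulation factor XIII, had 6258 and 4756 CPM in stromal macrophages, 883 and 676 CPM in CD11b+ dendritic cells and at most 3.22 CPM elsewhere. Its adjusted p of 0.0139 rose to 0.100 and 0.148 without CD11b+ replicate 1 or 2. Ccl24, an eosinophil-attracting chemokine, had 435 and 298 CPM against 40.4 and 66.1 CPM in CD11b+ dendritic cells and at most 0.554 CPM elsewhere. Its adjusted p of 0.00289 rose to 0.0533 without CD11b+ replicate 1. Gas6, which bridges dying cells to TAM receptors, had 959 and 865 CPM against 12.1 to 111 CPM, with CD103+ dendritic cells nearest, and its adjusted p of 0.00668 rose to 0.0710 without CD103+ replicate 2. The list's members that missed the threshold included Retnla, a secreted protein of alternatively activated macrophages in mice. Retnla had 12390 and 7475 CPM in stromal macrophages and 18700 and 24020 CPM in CD11b+ dendritic cells. Selenop, Timd4, Wfdc17, Nrp1 and Mrc1 also missed it, with smallest differences from 0.28 to 1.15.

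Ccl8, a monocyte chemoattractant, led the chemokines. It had 1265 and 1024 CPM in stromal macrophages, against 0.317 to 3.59 CPM in the other 8 libraries (8.999 ± 0.81, adjusted p = 0.000157). Of 24 chemokines tested, 5 were higher (Ccl8, Pf4, Ccl12, Ccl24 and Ccl7) and 2 were lower (Ccl22 and Ccl17), with a median smallest difference of -0.15. Ccl12, also a monocyte chemoattractant in mice, had 294 and 224 CPM in stromal macrophages, 18.2 and 36.5 CPM in ductal macrophages and at most 3.95 CPM in dendritic cells (3.24 ± 0.37, adjusted p = 0.000637). Ccl7 had 1708 and 1263 CPM in stromal macrophages and 408 and 414 CPM in CD11b+ dendritic cells, and its adjusted p of 0.0164 rose to 0.0815, 0.139 and 0.129 without stromal replicate 1, CD11b+ replicate 1 and CD11b+ replicate 2. Without CD11b+ replicate 1, 3 of the list's genes were higher. Ccl22, a chemokine of mature dendritic cells that acts on CCR4, had 1.60 and 0 CPM in stromal macrophages, against 37.6 to 748 CPM in the others (-5.67 ± 0.92, adjusted p = 0.00433). Ccl17, its neighbour in gene and in receptor, had 2.43 and 0.635 CPM against 4.78 to 92.1 CPM. Its call was lost without any of 8 single libraries (all but ductal replicate 1 and stromal replicate 1), with adjusted p from 0.0673 to 0.511.

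The 250 bases before the annotated start are shown for 3 of the 5 highest ranked higher genes whose window lies outside the gene's other annotated transcripts, because they hold motifs of myeloid transcription factors. Capitals mark TGCTGA, the MAF half-site, GAGGAA, the PU.1 core, and TATAAA, the TATA box, each searched on both strands. No capitals overlapped between motifs. The sequences are RefSeq's on GRCm38.p6, written 5′ to 3′ on the strand of the gene, and cover chr11:82114935-82115184 (plus strand) for Ccl8, chr7:101857191-101857440 (minus strand) for Folr2 and chr5:90772185-90772434 (plus strand) for Pf4.
Ccl8: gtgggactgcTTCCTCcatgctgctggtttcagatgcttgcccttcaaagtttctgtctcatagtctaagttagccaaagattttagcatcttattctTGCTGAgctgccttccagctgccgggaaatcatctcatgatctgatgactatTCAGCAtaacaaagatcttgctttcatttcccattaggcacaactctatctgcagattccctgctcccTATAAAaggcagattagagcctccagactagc
Folr2: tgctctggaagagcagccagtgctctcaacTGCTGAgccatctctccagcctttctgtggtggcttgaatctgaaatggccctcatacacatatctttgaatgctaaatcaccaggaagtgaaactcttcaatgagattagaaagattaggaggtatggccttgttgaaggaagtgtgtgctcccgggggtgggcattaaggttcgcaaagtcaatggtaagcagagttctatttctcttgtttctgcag
Pf4: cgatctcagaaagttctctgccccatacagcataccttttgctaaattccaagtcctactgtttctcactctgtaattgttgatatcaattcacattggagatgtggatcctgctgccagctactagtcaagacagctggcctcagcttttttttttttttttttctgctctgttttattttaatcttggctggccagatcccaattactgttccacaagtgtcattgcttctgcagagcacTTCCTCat

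The Ccl8 window held 2 MAF half-sites, 1 PU.1 core and 1 TATA box, the Folr2 window 1 MAF half-site and the Pf4 window 1 PU.1 core. The windows of Cd209b and Pla2g2d, the other 2 of the 5, held none of these. A promoter was found for 229 of the 312 higher genes, 335 of the 427 lower genes and 11766 of the tested genes. The MAF half-site occurred in 17.5% of the windows of higher genes and 9.25% of those of lower genes, against 12.9% over all tested genes and 15.8% over 27025 promoters. The interferon-stimulated element (GAAA, any 2 bases, GAAA), searched the same way and absent from the 5 windows, occurred in 9.61% of windows of higher genes and 2.39% of those of lower genes, against 2.85% over tested genes and 3.04% over all promoters. The PU.1 core occurred in 27.9%, 25.1%, 22.9% and 23.1% of the same 4 sets, and the TATA box in 10%, 5.07%, 6.99% and 13%. These matches describe the letters of these windows and no binding was measured.

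Of 24 complement genes tested, 5 were higher and 1, Itgax, was lower, with a median smallest difference of 0.37. C6, a component of the membrane attack complex, had 151 and 106 CPM in stromal macrophages and a single count in each of ductal macrophages, CD103+ and CD103- dendritic cells, with none in CD11b+ dendritic cells (adjusted p = 4.35e-05). C4b, an early component, had 237 and 215 CPM in stromal macrophages, against 3.39 to 29.98 CPM elsewhere (3.31 ± 0.44, adjusted p = 0.00138). Vsig4, a complement receptor of resident macrophages, had 35.1 and 24.2 CPM against 0 to 0.238 CPM (adjusted p = 0.00538). DESeq2 gave Vsig4 an adjusted p of 0.458. Without ductal replicate 2, 3 of the list's genes were higher. Fcna, a ficolin that starts the lectin pathway and was not on this list, had 1284 and 914 CPM in stromal macrophages, against 0.271 to 5.39 CPM elsewhere (7.83 ± 0.49, adjusted p = 1.50e-05). In each of these 4 genes both stromal libraries lay above all others, as in every gene called higher.

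Enzymes of lipid mediators were higher for 3 of 18 tested, with none lower and a median smallest difference of 0.13. Pla2g2d, a secreted phospholipase A2 of lymphoid and tissue macrophages, had 342 and 213 CPM in stromal macrophages, against 0.181 to 4.16 CPM elsewhere (6.93 ± 0.83, adjusted p = 0.00101). Ltc4s, the leukotriene C4 synthase, had 102.8 and 81.3 CPM against 0.633 to 8.51 CPM (3.78 ± 0.47, adjusted p = 0.000973). Alox5, which makes the leukotriene precursor, had 87.9 and 105 CPM in stromal macrophages, 24.7 and 35.5 CPM in CD11b+ dendritic cells and at most 0.724 CPM elsewhere. Its adjusted p of 0.00491 rose to 0.0758 without CD11b+ replicate 1. Fcgrt, the heavy chain of the neonatal Fc receptor, which recycles IgG and albumin, was the only higher gene among 9 Fc receptor genes tested, and Fcrl1 the only lower one. Fcgrt had 1550 and 1242 CPM in stromal macrophages, against 80.5 to 248 CPM elsewhere (2.75 ± 0.31, adjusted p = 0.0006).

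Among 30 growth factors and guidance genes tested, Igf1 was the higher gene. Insulin-like growth factor 1, which drives ductal outgrowth in the mammary gland, had 428 and 254 CPM in stromal macrophages, against 2.15 to 8.97 CPM elsewhere (5.57 ± 0.43, adjusted p = 4.82e-05). Pdgfb, a growth factor for pericytes, had 1.38 and 0.808 CPM in stromal macrophages, against 7.72 to 26.9 CPM in the others (-2.89 ± 0.40, adjusted p = 0.00161). Plxnd1, a semaphorin receptor, was the other lower gene of this list, and lost its call with 6 of the 10 libraries left out singly (adjusted p from 0.0900 to 0.288). Under the GC correction 3 genes of this list were higher and 1 was lower, and 2 or 3 were higher without either CD103- library, CD103+ replicate 1 or stromal replicate 2. Mmp9, a gelatinase that remodels matrix, was the only higher gene of 27 matrix genes tested, at 71.0 and 75.6 CPM in stromal macrophages and 0 to 2.33 CPM elsewhere (5.61 ± 0.60, adjusted p = 0.000637). Adam8, a membrane protease, was the only lower one and lost its call without ductal replicate 1 or stromal replicate 2. Tslp, a cytokine that acts on dendritic cells and is known mainly from epithelium, had 99.5 and 50.2 CPM in stromal macrophages and 0 to 1.86 CPM elsewhere (5.40 ± 0.70, adjusted p = 0.00117). The highest ranked genes outside the lists included Wwp1, a ubiquitin ligase, with 558 and 385 CPM against 8.98 to 19.1 CPM, and Aoah, an enzyme that inactivates bacterial lipopolysaccharide, with 99.3 and 86.9 CPM against 1.04 to 4.68 CPM. Their smallest differences were 4.79 ± 0.31 and 4.47 ± 0.37.

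Maf, a transcription factor of tissue macrophages, had 179 and 127 CPM in stromal macrophages, 12.2 and 13.6 CPM in CD11b+ dendritic cells and at most 8.89 CPM elsewhere (3.57 ± 0.38, adjusted p = 0.000422). Runx3, which acts in dendritic cells and lymphocytes, had 2.15 and 3.70 CPM in stromal macrophages, against 48.1 to 244 CPM in the others (-4.13 ± 0.30, adjusted p = 3.40e-05). These 2 genes had no overlap between stromal and other libraries, which held for every called gene. Of 28 macrophage transcription factors tested, 2 were higher, Maf and Tcf4, and 1, Runx3, was lower. Tcf4 was also the only called gene of 20 dendritic cell factors. It had 265 and 194 CPM against 22.1 to 94.95 CPM, and its adjusted p of 0.00751 rose to 0.0910 and 0.0538 without ductal replicate 1 and without stromal replicate 1.

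Genes induced by interferon were higher for 11 of 24 tested and lower for none, with a median smallest difference of 1.27. Ifit3, whose protein binds foreign RNA complexes, had 295 and 325 CPM in stromal macrophages, against 12.6 to 23.3 CPM in the other libraries (3.88 ± 0.26, adjusted p = 2.26e-05). Oasl2, a relative of the oligoadenylate synthetases, had 371 and 336 CPM against 12.6 to 73.4 CPM (2.34 ± 0.27, adjusted p = 0.000652). Irf7, the factor that amplifies type I interferon, had 514 and 582 CPM against 67.3 to 160 CPM (2.00 ± 0.26, adjusted p = 0.00121). In all 3 genes the stromal libraries were close together and, as in every gene called higher, above every other. Ifit1, Ifit2 and Rsad2 were also called, with adjusted p rising to 0.0573 (Ifit1, without CD103+ replicate 2), 0.0697 (Ifit2, without ductal replicate 2) and 0.0566 (Rsad2, without CD11b+ replicate 2). Neighbouring genes of this kind were called together. On chromosome 19, 4 of the 5 tested genes in the stretch from Ifit2 to Ifit1 were higher, and on chromosome 1, 4 of 5 in the stretch from Ifi213 to Ifi204, which holds Ifi208 (110 and 78.9 CPM against 0.554 to 4.31 CPM). Both stretches were cut at their first and last higher gene, so these shares are high by construction.

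Immediate early and heat shock genes, which also rise during tissue dissociation, were higher for 4 of 19 tested, with a median smallest difference of 0.79. Egr1, the most clearly separated, had 6390 and 4793 CPM in stromal macrophages, against 475 to 1257 CPM elsewhere (2.34 ± 0.38, adjusted p = 0.0044). The other 3 were Dnajb1, Ier2 and Hspa8, with smallest differences from 1.10 to 1.59. Only 1 or 2 of the list passed without stromal replicate 1, either CD103+ library, either CD11b+ library or CD103- replicate 2, and 3 passed without each of the remaining libraries. In fits of single pairs of populations none passed, Egr1 included (adjusted p = 0.0517). The part of handling in these levels was not tested.

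Mitochondrially encoded genes were higher for 10 of 13 protein-coding genes tested, with a median smallest difference of 2.67. COX1, a subunit of cytochrome c oxidase, had 111400 and 70980 CPM in stromal macrophages, against 3981 to 20220 CPM elsewhere (2.74 ± 0.53, adjusted p = 0.0128). The rRNA gene mt-Rnr2 had 116800 and 85080 CPM against 864 to 8338 CPM (4.14 ± 0.63, adjusted p = 0.00306). With a term for the replicate number, 4 of the 13 protein-coding genes were higher. In a test for a log2 change over 1 in size 1 was, and in fits of single pairs 0 were. The count of 10 fell to 0 without CD11b+ replicate 2, to 1 without CD103- replicate 1, to 3 without stromal replicate 1, to 4 without CD103+ replicate 2, to 5 without either ductal library and to 6 without CD103+ replicate 1 or CD11b+ replicate 1. COX1 had an adjusted p of 0.0554, 0.0579 and 0.0874 without CD103- replicate 1, CD11b+ replicate 1 and CD11b+ replicate 2. Their share of the counts is given above for each group, and whether cell state or RNA quality had a part in it was not tested.

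**Figure D3:**
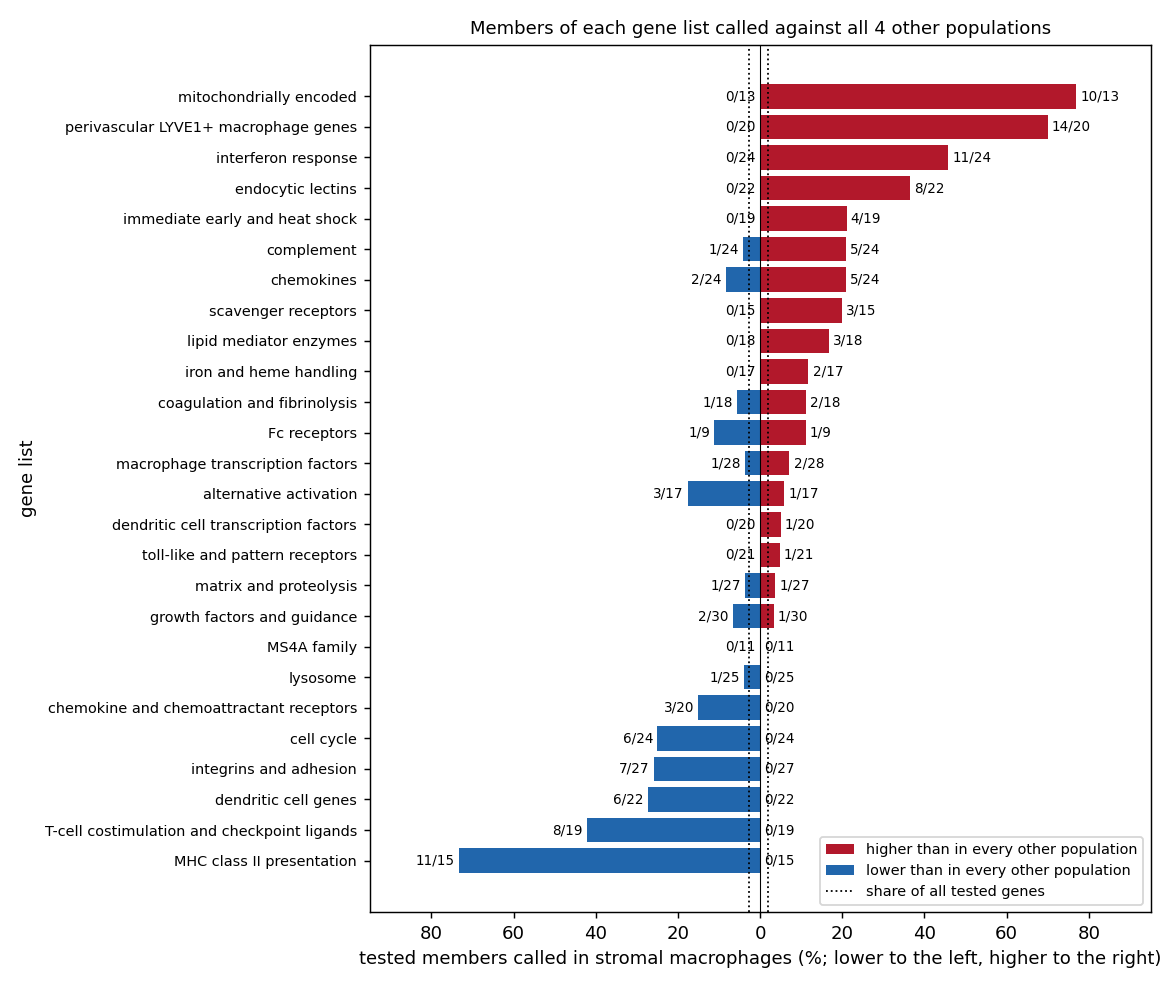
Share of the tested members of each of 26 gene lists called lower (left, blue) or higher (right, red) in stromal macrophages than in all 4 other populations, with the number called over the number tested beside each bar. Dotted lines mark the shares over all tested genes, 2.72% lower and 1.99% higher. Genes of LYVE1+ macrophages stand at 14 of 20 on the right and MHC class II genes at 11 of 15 on the left.

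On the lower side, MHC class II genes formed the list with the highest share called, 11 of 15 tested, with none higher and a median smallest difference of -2.62. H2-Ab1, the beta chain of I-A, had 2239 and 1132 CPM in stromal macrophages, against 15200 to 48950 CPM in the other 8 libraries (-3.48 ± 0.50, adjusted p = 0.00206). H2-Eb1, the beta chain of I-E, had 1175 and 632 CPM against 6771 to 19570 CPM (-3.14 ± 0.43, adjusted p = 0.00154). Transcripts of these genes were thus present in stromal macrophages and below every other library. H2-DMb2, a subunit of the peptide exchange factor DM, averaged 3.81 CPM in stromal macrophages, against 41.3 CPM in ductal macrophages, 89.0 and 79.3 CPM in CD103+ and CD103- dendritic cells and 355 CPM in CD11b+ dendritic cells (adjusted p = 3.40e-05). Ciita, the master activator of class II transcription, had 26.7 and 22.8 CPM against 115 to 206 CPM (-2.36 ± 0.22, adjusted p = 0.000209). Cd74, the invariant chain, had 6302 and 3288 CPM against 22070 to 117800 CPM. Its adjusted p of 0.0155 rose to 0.0551 without CD103- replicate 1 and to 0.0689 without stromal replicate 2. In fits of each pair of populations alone, with 2 residual degrees of freedom, 5 of the list's genes were lower.

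Ccr7, the receptor that guides dendritic cells to lymph nodes, ranked first among the lower genes of at least 30 CPM in the nearest population. It had no count in either stromal library, against 93.6 and 70.7 CPM in ductal macrophages, 668 and 1235 CPM in CD103+ dendritic cells, 319 and 308 CPM in CD103- dendritic cells and 147 and 92.8 CPM in CD11b+ dendritic cells (adjusted p = 2.26e-05). Set against a floor of 3 counts over both stromal libraries, it was at least 971-fold lower than in the nearest population, ductal macrophages. Il12b, the p40 subunit of interleukins 12 and 23, also had no stromal count, against 3.59 to 394 CPM elsewhere, and was at least 87.8-fold lower than in CD11b+ dendritic cells (adjusted p = 0.00121). Of 19 genes for T-cell costimulation and checkpoint ligands, 8 were lower and none higher, with a median smallest difference of -1.56, Ccr7 and Il12b included. Havcr2, which encodes the receptor TIM-3, had 2.92 and 2.25 CPM in stromal macrophages, against 20.8 and 10.9 CPM in CD11b+ dendritic cells and 353 to 1269 CPM elsewhere (-2.64 ± 0.36, adjusted p = 0.00161). In a test for a log2 change over 1 in size (glmTreat), 4 of the 8 passed, and in fits of single pairs 3 did.

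Integrin and adhesion genes were lower for 7 of 27 tested and higher for none, with a median smallest difference of -0.71. Itgax, which encodes CD11c, averaged 0.198 CPM in stromal macrophages, against 729 CPM in ductal macrophages, 154 and 104 CPM in CD103+ and CD103- dendritic cells and 106 CPM in CD11b+ dendritic cells (-8.98 ± 0.48, adjusted p = 5.52e-06). Itgb2, the chain shared by CD11a, CD11b and CD11c, had 63.5 and 86.8 CPM against 295 to 561 CPM (-2.27 ± 0.34, adjusted p = 0.00277). Itgal, which encodes CD11a, had 1.93 and 3.98 CPM against 17.9 to 208 CPM (-2.99 ± 0.44, adjusted p = 0.00232). Cd44, a hyaluronan receptor, had 78.0 and 59.0 CPM against 270 to 1089 CPM (-2.22 ± 0.33, adjusted p = 0.00276). Ptprc, the pan-leukocyte gene for CD45, chosen after its values were seen, had 128 and 87.9 CPM in stromal macrophages, against 565 to 1477 CPM elsewhere (-2.72 ± 0.39, adjusted p = 0.00227). Without CD11b+ replicate 1 or ductal replicate 2, 4 of the 27 list members were lower.

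**Figure D4:**
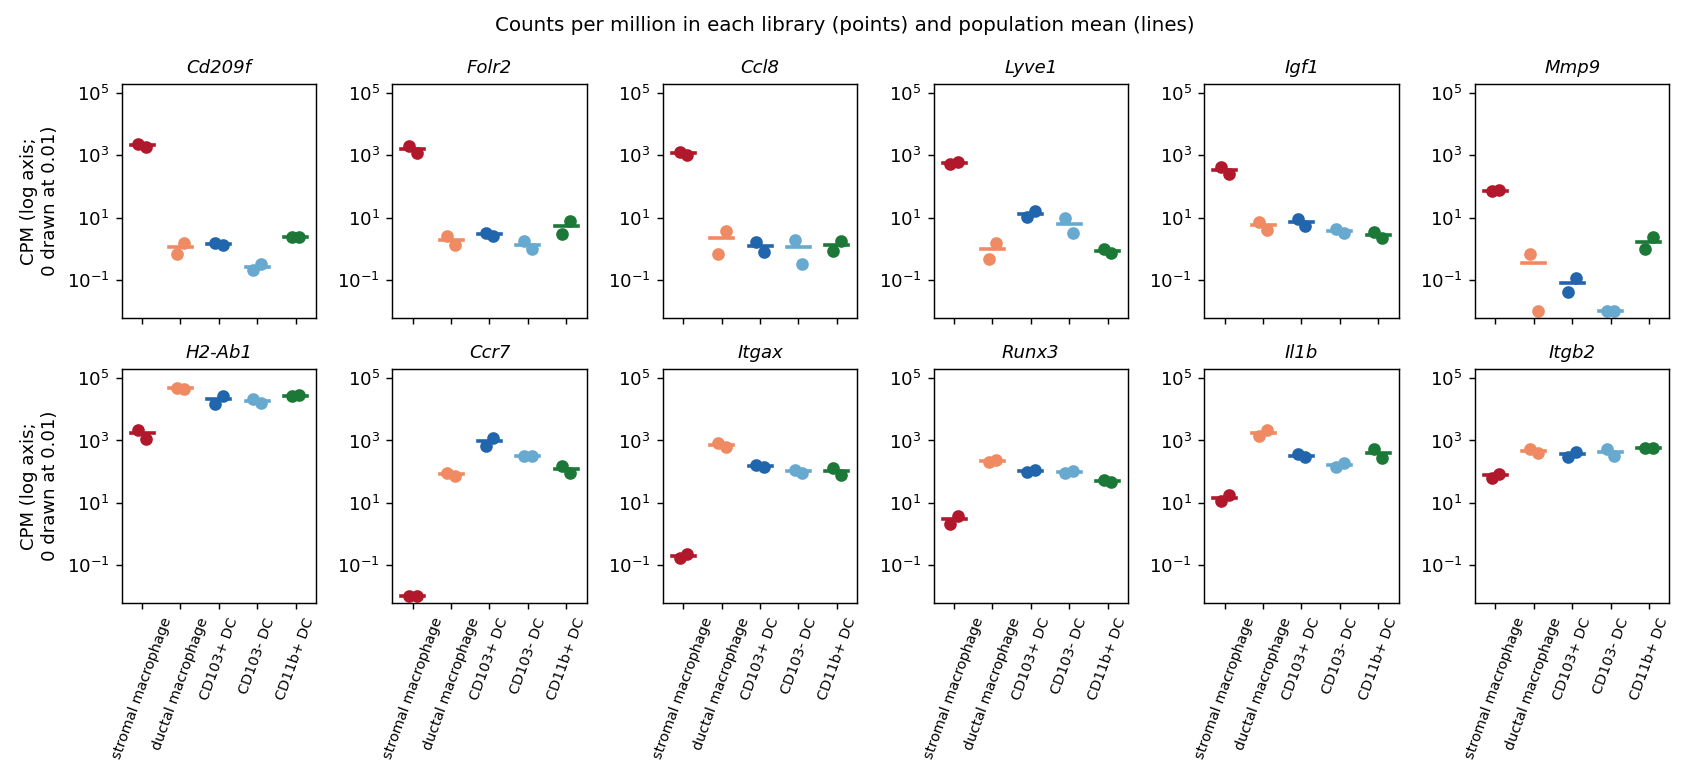
Levels of 6 genes called higher (top row) and 6 called lower (bottom row) in stromal macrophages, in CPM on a log axis, with a point for each library and a line at each population mean. Stromal macrophages are leftmost in every panel, DC stands for dendritic cells, and values of 0 are drawn at 0.01. The stromal points do not overlap those of any other population, which holds for every called gene.

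Several of the highest ranked lower genes encode cytokines or their receptors. Il1b, the cytokine interleukin 1 beta, had 11.4 and 17.8 CPM, against 1399 and 2135 CPM in ductal macrophages and 137 to 520 CPM in dendritic cells (-3.48 ± 0.41, adjusted p = 0.000727). Il1r2, the decoy receptor for interleukin 1, had 5.19 and 1.10 CPM against 34.1 to 503 CPM (-3.56 ± 0.56, adjusted p = 0.00374). Csf2rb, the beta chain shared by the receptors for GM-CSF, IL-3 and IL-5, had 24.9 and 46.7 CPM against 407 to 987 CPM (-3.63 ± 0.34, adjusted p = 0.000202). No stromal library came near the lowest of the others in these 3 genes. Signalling genes of other kinds ranked among the lower 20 as well. Plcb2, a phospholipase C activated by G proteins, had 0.497 and 0.519 CPM against 37.0 to 112 CPM, and P2ry10, a lipid receptor, had 0.110 and 0.981 CPM against 48.8 to 388 CPM. Gpr132 and Gpr35, both G protein-coupled receptors, had at most 7.04 and 4.91 CPM in stromal libraries and at least 121 and 64.9 CPM elsewhere. Cytip, which restrains leukocyte adhesion, had 44.0 and 61.8 CPM against 1128 to 2843 CPM (-4.73 ± 0.43, adjusted p = 0.000157). Napsa, an aspartic protease, had 2.54 and 5.43 CPM against 225 to 731 CPM.

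Dendritic cell genes were lower for 6 of 22 tested (median -0.91), among them Ccr7 and Itgax, and chemoattractant receptors for 3 of 20 (median -0.21). Clec9a, a receptor for dead cells on cross-presenting dendritic cells, had no stromal count, against 9.61 CPM in ductal macrophages, 232 and 177 CPM in CD103+ and CD103- dendritic cells and 1.91 CPM in CD11b+ dendritic cells, so that it was at least 22.6-fold lower than in the last of these (adjusted p = 0.00121). Cell cycle genes were lower for 6 of 24 tested (median -1.01) and higher for none. Mcm3, a subunit of the replicative helicase, had 24.5 and 43.7 CPM in stromal macrophages, against 96.3 to 181 CPM elsewhere (-1.55 ± 0.27, adjusted p = 0.00723). The count of 6 ranged from 2 to 13 with single libraries left out: it was 2 or 3 without either ductal library, either CD11b+ library or stromal replicate 1, and 13 without stromal replicate 2. No cell cycle gene passed in the test for a log2 change over 1. Psap, the precursor of the lysosomal saposins, was the only lower gene of 25 lysosomal genes (median 0.0088), with 771 and 738 CPM against 3503 to 8918 CPM (-2.34 ± 0.35, adjusted p = 0.00289). None of the 11 tested MS4A genes was called in either direction with edgeR or DESeq2, and the count at an unadjusted p under 0.05 was 0. Over all 15681 tested genes, edgeR called 1.99% higher and 2.72% lower, and 2144 passed the unadjusted threshold. A list of 11 with no call is thus near those shares.

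The remaining lists had few called members. Scavenger receptors had 3 higher of 15 tested (Lyve1, Cd163 and Cd5l, median -0.17), and Cd5l lost its call without CD11b+ replicate 1 (adjusted p = 0.0584). Coagulation genes had 2 higher (F13a1 and Gas6) and 1 lower (Plaur, the urokinase receptor) of 18 (median 0.24), and Plaur lost its call without stromal replicate 2 (adjusted p = 0.0589). Iron and heme genes had 2 higher of 17 (median 0.60), Cd163 and Cp, the copper oxidase ceruloplasmin, whose call was lost with 5 of the 10 libraries left out singly. Genes of alternative activation had 1 higher, Ccl24, and 3 lower, Ccl22, Ccl17 and Pdcd1lg2, of 17 (median -0.26). Pdcd1lg2, which encodes PD-L2, lost its call without ductal replicate 1 or stromal replicate 1 (adjusted p = 0.110 and 0.0522). Toll-like and pattern receptors had 1 higher of 21, Ly96, the partner of TLR4, whose call was lost with 7 of the 10 libraries left out singly (adjusted p from 0.0588 to 0.267).

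By position, called genes were spread over the chromosomes with a few clusters. The 782 tested genes of chromosome 17 had 46 lower genes (5.88%), among them 14 of the 47 tested genes in chr17:33523646-34341410, which holds the MHC class II genes. On chromosome 8, 6 of the 13 tested genes in chr8:3655770-4137707 were higher. They were Cd209b, Cd209d, Cd209e, Cd209f, Cd209g and Retn, which encodes resistin. By the gene length deposited with the counts, lower genes were longer, with a median of 3598 bases, than higher genes, with 2243 bases. The median over all tested genes was 2693 bases. Median GC content was 52.67% for lower genes, 47.72% for higher genes and 49.81% over all tested genes, from the longest transcript of 95.8%, 96.2% and 90.8% of the genes. Of 124 called genes followed under the alternatives, 2 lost their call under the GC correction, Plxnd1 (adjusted p = 0.117) and the fibroblast gene Dcn (adjusted p = 0.206).

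Some markers of fat cells and of fibroblasts were also called higher in the stromal libraries. The summed level of 7 adipocyte markers was 447 and 479 CPM in stromal macrophages against 5.24 to 92.2 CPM in the others, and all 7 had stromal counts. Of these markers 4 were called higher. Car3, carbonic anhydrase 3, had 189 and 233 CPM against 2.201 to 29.1 CPM (3.17 ± 0.38, adjusted p = 0.000727), and Adipoq, adiponectin, had 25.9 and 26.3 CPM against 0.189 to 2.30 CPM (3.77 ± 0.53, adjusted p = 0.002). The others were Retn and Cidec, and Cidec lost its call with 6 of the 10 libraries left out singly (adjusted p from 0.0935 to 0.250). The summed level of 7 fibroblast markers was 1214 and 1646 CPM in stromal macrophages against 299.0 to 1231 CPM in the others, so the groups overlapped. Dcn, Lum and Dpt of this list were called higher, with stromal means of 402, 84.0 and 46.2 CPM, and each lost its call with 3 to 8 of the 10 libraries left out singly. DESeq2 called 4 of the 7 higher. Pdgfra, not called with edgeR, had 15.1 and 28.5 CPM in stromal macrophages and at most 5.24 CPM elsewhere. Col1a1, Col1a2 and Col3a1 overlapped with other libraries. The 6 mast cell markers summed to 184 and 157 CPM in stromal macrophages and 19.1 to 248 CPM in the others, and none of the 5 tested was called with edgeR or DESeq2. The high sums of CD103+ and CD103- dendritic cells came from Kit, the stem cell factor receptor, at 172 to 248 CPM there and 20.6 and 98.7 CPM in stromal macrophages. The 4 mast cell proteases stood above every other library in both stromal libraries and passed an unadjusted p under 0.05. Of the 15681 tested genes, 2144 passed that threshold in 1 direction or the other. Cma1 had 61.6 and 20.7 CPM in stromal macrophages and at most 2.70 CPM elsewhere, Tpsb2 had 37.7 and 19.4 CPM against at most 3.29 CPM, Cpa3 had 39.1 and 12.2 CPM against at most 2.90 CPM, and Mcpt4 had 24.1 and 5.83 CPM against at most 1.67 CPM. None of the 7 luminal epithelial or the 7 endothelial markers was called with edgeR or DESeq2, while 0 and 1 of them were lower at an unadjusted p under 0.05. The luminal markers summed to 825 and 1751 CPM in stromal macrophages against 220.5 to 1369 CPM in the others. Against ductal macrophages 5 of the 7 were higher, beside 14.3% of all tested genes. Against CD103- dendritic cells 1 was higher, and against CD11b+ dendritic cells 1 was lower. The endothelial markers summed to 38.8 and 151 CPM in stromal macrophages against 74 to 617 CPM in the others. The part of RNA from such cells in the genes called higher, Igf1, C4b, C6 and Tslp included, was not tested.

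**Figure D5:**
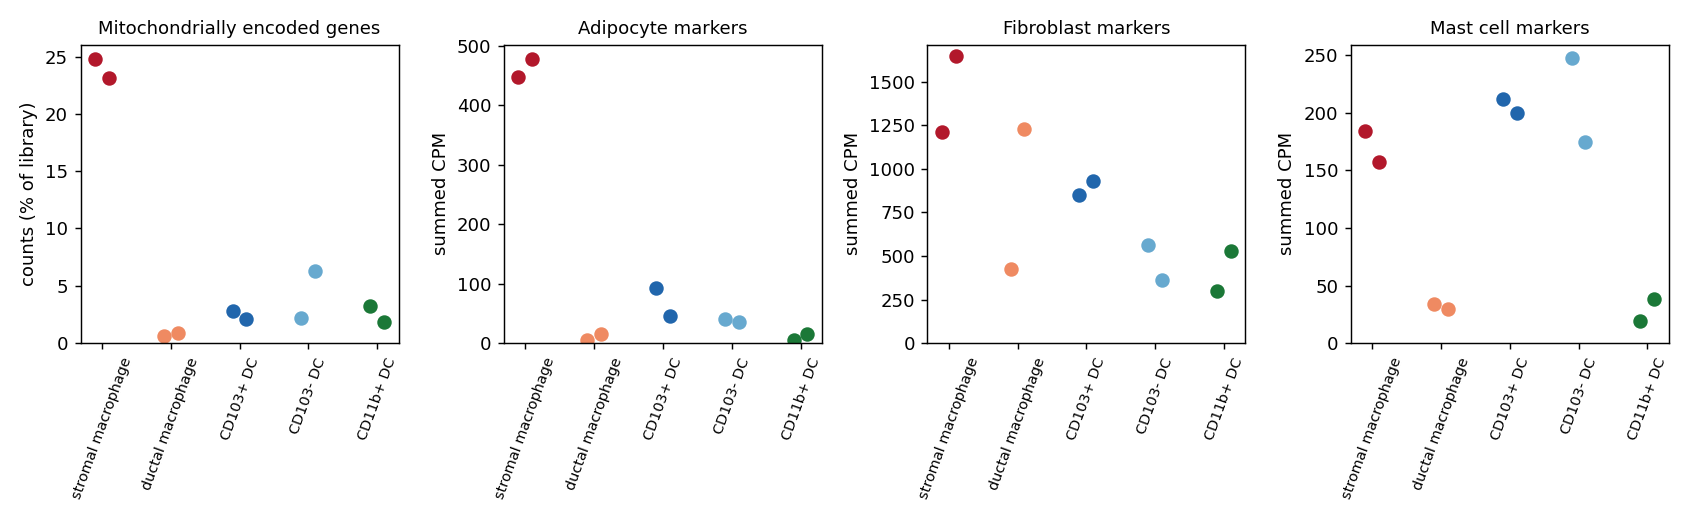
Share of counts from mitochondrially encoded genes (first panel, % of the library) and summed levels of adipocyte, fibroblast and mast cell markers (CPM), with a point for each of the 10 libraries and stromal macrophages leftmost; DC stands for dendritic cells. The stromal points lie above all others in the mitochondrial and adipocyte panels, and overlap them in the fibroblast panel and, through Kit in CD103+ and CD103- dendritic cells, in the mast cell panel.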

How the data were processed

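RNA-seq counts of 10 libraries from 5 sorted populations were used. Per the labels' protocols, sorted cells gave RNA (RNeasy Plus), TruSeq RNA libraries and paired-end NextSeq reads. The deposited values are raw counts per gene, made by the authors with featureCounts on mm10, per the submitters' processing notes. The aligner, the annotation, tool versions and strandedness remain unstated in the labels and notes, so overlapping and antisense genes are uncertain. Each library's own table equalled its column of the series table.

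The table held 27179 Entrez gene IDs, and 25275 had a RefSeq name. The 1904 others took 0.388% to 2.32% of counts and stayed in totals and tests. In R 4.3.3 with edgeR 4.0.16, filterByExpr (minimum count 10, minimum total 15) left 15681 genes. TMM factors ranged from 0.779 to 1.36. A quasi-likelihood fit over all 5 populations (5 residual degrees of freedom, common biological coefficient of variation 0.333) gave 4 contrasts of stromal macrophages with another population. The intersection rule took the largest of 4 p-values where all 4 signs agreed, and p-values were adjusted over all genes (Benjamini-Hochberg). The SE divides the absolute log2 fold change by the root of the F statistic. Spread in the p-values is that between replicates the labels call biological, and floors and bounds cover counting error only. The fit was tested on simulated data with known answers.

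Members and gene lists were chosen with earlier results of these data known. Genes to name were drawn from the 25 higher genes (stromal mean of at least 30 CPM) and 20 lower genes (at least 30 CPM in the nearest population) with the largest smallest difference, the 8 higher and 5 lower genes of highest CPM per kilobase, up to 4 called members per list and direction, and markers. Some list members are not reported here. Further list members and the genes marked as such were named after their values were seen. Alternatives were other scalings (RLE, upper quartile), removal of mitochondrial genes, no filter, DESeq2 1.42.0, a replicate block, glmTreat, fits of single pairs, separate adjustment, each library left out, and a GC content correction chosen after seeing the data.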

Additional observations from a re-analysis of the deposited data

How the results depend on the processing

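None of 124 called genes followed under the 20 alternatives reversed its direction. Both stromal libraries lay beyond all 8 others in each of these genes, so refits of the same counts could hardly reverse one. Of the 124, 69 kept their call under all alternatives (41 higher, 28 lower). The call was lost by 42 with some single library left out and by 48 under some other setting. Fits of single pairs cost 43 named genes their call and glmTreat 34. With single libraries left out, genes higher than in every other population numbered 166 to 329 and genes lower 237 to 532. Against ductal macrophages the ranges were 981 to 2263 higher and 1555 to 2480 lower, against CD103+ dendritic cells 1423 to 2533 and 1716 to 2767, against CD103- dendritic cells 1802 to 2573 and 2080 to 2713, and against CD11b+ dendritic cells 819 to 1822 and 1235 to 2185. A population left with 1 library was assumed to vary like the others.

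With glmTreat, which asks for a log2 change over 1, 118 genes were higher and 162 lower than in every other population. It gave 871 and 1135 against ductal macrophages, 948 and 1319 against CD103+, 1124 and 1319 against CD103- and 723 and 890 against CD11b+ dendritic cells. Fits of single pairs, with 2 residual degrees of freedom, gave 169 higher and 140 lower genes by the rule of 4. They gave 1636 higher and 1617 lower genes against CD103- dendritic cells, and 1796 higher and 1754 lower against CD103+ dendritic cells. Adjusting each comparison on its own gave 599 higher and 784 lower genes. DESeq2 gave 720 lower genes, 426 of them shared, and the cause was not tested. Upper-quartile factors moved the median log2 difference from ductal macrophages over all genes to 0.216, against 0.0998 with TMM, and turned the balance of calls there to 2650 higher and 2320 lower. The balance also turned in the fits of single pairs, by the rule of 4 and against CD103- and CD103+ dendritic cells. Against CD103+ dendritic cells it turned under the GC correction as well (2906 higher, 2556 lower). The replicate block gave 249 higher and 366 lower genes. Correlations of replicate deviations between populations ran from -0.176 to 0.177, and the labels do not say that the number marks a shared batch. With 2 libraries per population, differences in genes of few counts could have been missed at this depth.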
